A study of Mus musculus with 13 samples.

Results

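The enzymes that activate long-chain fatty acids, carry them into mitochondria and oxidise them there were examined in aortas of mice given an adenovirus carrying mouse FAM3A or a control adenovirus. The genes were given by name and comprised Slc27a1, Acsl1, Cpt1b, Cpt2, Acadm, Acadvl, Hadha, Hadhb, Acaa2 and Etfdh, that is, 10 of the 54532 genes in the count table. All 10 passed the filter on low counts and were among the 15811 genes tested. The RNA-seq experiment had 13 libraries, each labelled as 1 mouse aorta, with 6 aortas in the Ad-sham group and 7 in the Ad-FAM3A group. All mice were ApoE-/- (they lack apolipoprotein E and are prone to atherosclerosis and to aneurysm under angiotensin II). All received angiotensin II at 1000 ng/kg/min for 28 days from 10 weeks of age. Both groups also received adenovirus by 5 tail vein injections. The Ad-FAM3A virus carried FLAG-tagged mouse FAM3A. The study's methods name a vector with the EF1A promoter, which is active in most cell types, and also the pAd/CMV/V5-DEST vector, so the promoter is not settled here. The Ad-sham virus was the same vector without the gene. Male or female mice were used according to the study's methods, and the labels do not give the sex of each aorta. In all 13 libraries Xist, which female cells express, was at most 0.364 CPM (counts scaled to library size) and the Y-linked Ddx3y was at 79.6 CPM or more, the pattern of male mice. Whole aortas were harvested, and the study names aortic or aneurysm tissue as the source of RNA without giving the segment. A level in a library is therefore a mean over all cells of the sampled vessel and of any tissue left on it.

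Long-chain fatty acids cannot be oxidised as they are. They are taken up and joined to coenzyme A, transferred to carnitine to cross the inner mitochondrial membrane, and then shortened in rounds of 4 reactions (dehydrogenation, hydration, a second dehydrogenation and thiolysis) that release acetyl-CoA for the citric acid cycle. The first dehydrogenation hands its electrons to the electron transfer flavoprotein and from there to the respiratory chain. Heart, slow skeletal muscle and brown adipose tissue are rich in these enzymes, which nuclear receptors of the PPAR and estrogen-related receptor families and the coactivator PGC-1 are known to induce. The mouse aorta is surrounded by perivascular fat, which around the thoracic part resembles brown adipose tissue.

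The counts of all 10 genes averaged lower in the Ad-FAM3A aortas, with log2 fold changes between -0.90 (Slc27a1) and -0.23 (Acaa2) and a median of -0.65, against a median of 0.00319 over all genes tested. Cpt1b, whose exons mostly overlap those of another gene, is part of each number out of 10, and without it the median is that of Acadm, -0.63. A log2 fold change below 0 was seen in 49.6% of all genes tested. In edgeR's quasi-likelihood test none of the 10 reached an adjusted p under 0.05, and neither did any other gene (0 of 15811, 0%). Without adjustment 934 genes had p under 0.05. DESeq2 called 10 genes at an adjusted p under 0.05, and none of the 10 enzymes was among them, whereas limma-voom called 0 genes. At an unadjusted p under 0.05, 5 of the 10 enzymes (Slc27a1, Acsl1, Cpt2, Hadha and Etfdh) were lower in Ad-FAM3A, against 463 of all genes (2.93%). That number was 2 without Ad-sham1, 2 without Ad-sham3, 3 without Ad-sham2, 3 without any one of Ad-FAM3A aortas 1, 3, 4, 5, 6 and 7, and 7 without Ad-sham5, and all 10 log2 fold changes stayed negative each time. The share of all genes lower at that p was 2.85% without Ad-sham1, 1.44% without Ad-sham3, 2.21% without Ad-sham2 and 3.58% without Ad-sham5. With Ad-FAM3A aortas 1, 3, 4, 5, 6 and 7 left out in turn, that share was 3.26%, 2.85%, 2.07%, 1.77%, 2.48% and 2.4%. Without Ad-sham1 and Ad-FAM3A6, the aortas richest in cardiac transcripts, 2 of the 10 enzymes were lower at that p, against 2.19% of all genes, and the median was -0.47. The Ad-FAM3A and Ad-sham values overlapped for each of the 10, whereas every Ad-FAM3A aorta lay below every Ad-sham aorta for 9 of all genes (0.0569%). The enzymes and the lists below were picked with earlier results of these data known, so their common direction is a description.

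The libraries held 14481179 to 19797407 counts, and the limit that 3 counts set ranged from 0.14 to 0.221 CPM. Fam3a itself did not show the labelled difference, with 24.4 ± 4.27 CPM in Ad-sham (SD, n = 6) and 24.0 ± 4.64 CPM in Ad-FAM3A (n = 7; log2 fold change -0.03, SE 0.16, adjusted p = 0.971), so lower and higher are meant between groups as labelled. Whether transcripts of the vector were counted at the gene is not given in the sources used here. Markers of tissue other than the vessel wall varied between aortas. A set of 8 adipocyte markers summed to between 2431 and 10660 CPM, and a set of 9 cardiac muscle markers to between 45.04 and 358 CPM, with the highest mean log2 CPM in Ad-sham1 and Ad-FAM3A6. Fibroblast markers (7 of 7 with a negative log2 fold change) had a mean log2 CPM of 8.46 ± 0.43 in Ad-sham and 8.16 ± 0.53 in Ad-FAM3A, and endothelial markers 7.24 ± 0.35 and 7.16 ± 0.27. Other marker sets varied more, with summed levels over the 13 aortas from 0.485 to 605 CPM for kidney, 13.92 to 1495 CPM for sympathetic neurons (8 of 8 with a negative log2 fold change), 3.36 to 420 CPM for liver (0 of 7 tested) and 24.97 to 10580 CPM for B cells (0 of 6). Their part in the enzymes' values was not tested. In bulk tissue fewer cells of a type and less RNA per cell cannot be told apart.

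Slc27a1 (ENSMUSG00000031808, chr8:71568882-71587302, plus strand, GRCm38) encodes the fatty acid transport protein FATP1, which takes up long-chain fatty acids and activates them. In the Ad-sham aortas its level ranged from 112 to 292 CPM with a median of 199 CPM, and in the Ad-FAM3A aortas from 82.1 to 162 CPM with a median of 93.3 CPM. Ad-sham3 and Ad-sham5 held the most, and Ad-sham1 and Ad-sham4 were the only Ad-sham aortas among the Ad-FAM3A values. The means were 199 ± 71.2 CPM (n = 6) and 107 ± 32.2 CPM (n = 7), a log2 fold change of -0.90 (SE 0.25, unadjusted p = 0.00259, adjusted p = 0.810). An exact two-sided permutation test on the log2 CPM of this gene alone gave p = 0.00991.

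Acsl1 (ENSMUSG00000018796, chr8:46471037-46536051, plus strand) encodes the long-chain acyl-CoA synthetase that prevails in fat and heart. Its level ranged from 614 to 1483 CPM in Ad-sham (median 1033 CPM) and from 381 to 710 CPM in Ad-FAM3A (median 624 CPM). Only Ad-sham4 lay within the Ad-FAM3A values, and Ad-FAM3A3 lay below all other aortas. The means were 1045 ± 331 CPM (n = 6) and 599 ± 106 CPM (n = 7), a log2 fold change of -0.80 (SE 0.22, unadjusted p = 0.00268, adjusted p = 0.810), and the exact permutation test gave p = 0.00408. For both activating enzymes all 7 Ad-FAM3A aortas lay below the Ad-sham median, as they did for Cpt2, Acadm, Hadha and Etfdh. Slc27a1 and Acsl1 were the 2 of the 10 enzymes with the lowest unadjusted p. Their log2 fold change was negative under each of the 25 alternative settings tried, between -1.03 and -0.76 for Slc27a1 and between -0.92 and -0.54 for Acsl1. Cpt2, Acadm, Hadha and Etfdh also stayed negative under all 25.

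**Figure D1:**
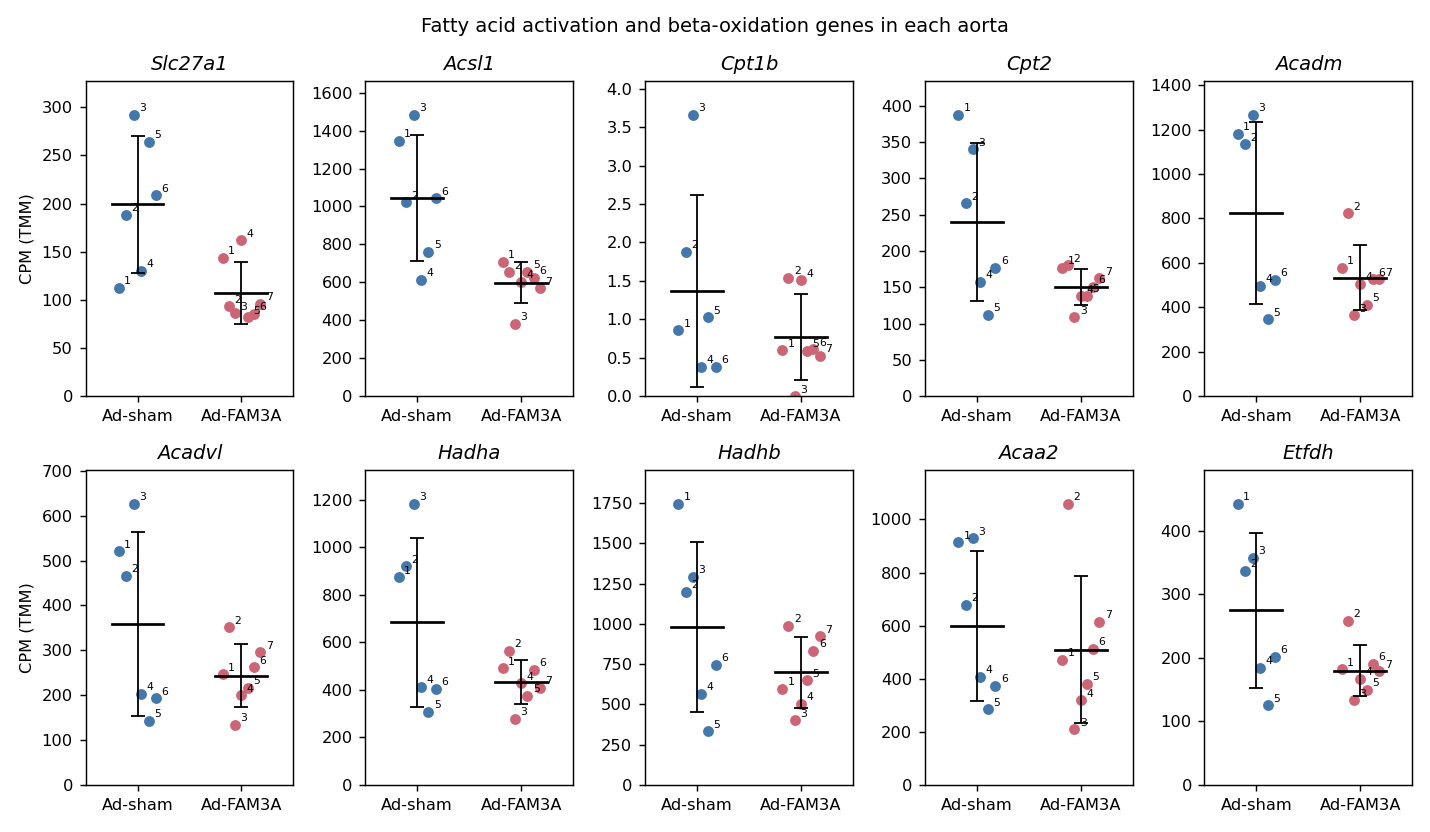
Levels of the 10 enzymes in each aorta, in TMM-scaled CPM on linear axes that start at 0. Points are aortas, numbered as labelled, horizontal bars are group means and error bars are SD (n = 6 Ad-sham, n = 7 Ad-FAM3A). The Ad-sham aortas 1, 2 and 3 lie above the Ad-sham aortas 4, 5 and 6 for most enzymes, and the values of both groups overlap in every panel.

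Entry into the mitochondrion needs a carnitine palmitoyltransferase on each side. Cpt1b (ENSMUSG00000078937, chr15:89416405-89425863, minus strand) encodes the muscle form of the outer enzyme, which malonyl-CoA inhibits. It had 13, 31, 58, 6, 22 and 6 counts in Ad-sham1 to Ad-sham6 and 10, 25, 0, 24, 8, 10 and 9 counts in Ad-FAM3A1 to Ad-FAM3A7. Only Ad-sham3 exceeded 2 CPM, and Ad-FAM3A3 had no count, which allows a level of up to 0.212 CPM. The means of 1.37 ± 1.25 CPM and 0.766 ± 0.558 CPM differed by a log2 fold change of -0.82 with a wide error (SE 0.68, unadjusted p = 0.244, adjusted p = 0.832, exact permutation p = 0.332), and without Ad-sham3 it was -0.24. These counts may not give the level of the gene. In the GENCODE M21 annotation of GRCm38, 2744 of its 3372 exonic bases (81.4%) are also exons of Gm44502, a gene on the same strand that spans Cpt1b and its neighbour Chkb, and Gm44502 had 0 counts in all 13 libraries. Chkb, a choline kinase, reached at most 1.14 CPM. How reads that fall on overlapping genes were counted is not given in the sources used here, and the part of this overlap in the low counts was not tested.

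Cpt2 (ENSMUSG00000028607, chr4:107903981-107923610, minus strand) encodes the inner enzyme, which rebuilds acyl-CoA in the matrix. Its level ranged from 112 to 388 CPM in Ad-sham (median 221 CPM) and from 109 to 180 CPM in Ad-FAM3A (median 151 CPM). Ad-sham1, Ad-sham2 and Ad-sham3 lay above every Ad-FAM3A aorta, whereas Ad-sham4, Ad-sham5 and Ad-sham6 lay among them. The log2 fold change was -0.67 (SE 0.26, unadjusted p = 0.0206, adjusted p = 0.810), with means of 240 ± 109 CPM and 151 ± 24.97 CPM and an exact permutation p of 0.0781.

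The first step of each round falls to acyl-CoA dehydrogenases of different chain-length preference. Acadvl (ENSMUSG00000018574, chr11:70010183-70015411, minus strand), the very-long-chain enzyme, ranged from 142 to 627 CPM in Ad-sham (median 334 CPM) and from 133 to 351 CPM in Ad-FAM3A (median 246 CPM). Acadm (ENSMUSG00000062908, chr3:153922357-153944632, minus strand), the medium-chain enzyme, ranged from 347 to 1267 CPM in Ad-sham (median 829 CPM) and from 365 to 823 CPM in Ad-FAM3A (median 525 CPM). Again Ad-sham1, Ad-sham2 and Ad-sham3 stood above all Ad-FAM3A aortas for both genes, and Ad-sham5 was the lowest Ad-sham aorta for both. The log2 fold change was -0.56 for Acadvl (SE 0.34, unadjusted p = 0.125, exact permutation p = 0.323) and -0.63 for Acadm (SE 0.31, unadjusted p = 0.0630, exact permutation p = 0.171), and adjusted p was 0.812 and 0.810. Without Ad-sham3 the value of Acadvl was -0.33. Of the exonic bases of Acadvl, 42.9% overlap Dvl2 on the opposite strand, and whether reads were counted by strand is not given in the sources used here. If reads on shared bases were left out, only 1535 of 2686 bases were counted, and the level of Acadvl per length would be too low. This was not tested. Dvl2, a signalling protein of the Wnt pathway, had 12.98 ± 2.80 CPM in Ad-sham and 13.03 ± 2.15 CPM in Ad-FAM3A, far below Acadvl. Per length, Acadvl had less than Acadm in all 13 aortas, and the log2 ratio of both was -0.71 ± 0.14 in Ad-sham and -0.60 ± 0.23 in Ad-FAM3A (exact permutation p = 0.351, adjusted over 4 ratios 0.542). The difference of 0.10 was 0.05 without Ad-FAM3A7 and 0.16 without Ad-FAM3A3.

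Hadha and Hadhb encode the alpha and beta subunits of the mitochondrial trifunctional protein, which performs the remaining 3 steps on long chains: alpha carries the hydratase and dehydrogenase activities and beta the thiolase. Hadha (ENSMUSG00000025745, chr5:30118304-30155162, minus strand) ranged from 306 to 1184 CPM in Ad-sham (median 643 CPM) and from 278 to 564 CPM in Ad-FAM3A (median 427 CPM). Hadhb (ENSMUSG00000059447, chr5:30155248-30184593, plus strand) ranged from 333 to 1749 CPM in Ad-sham (median 972 CPM) and from 401 to 988 CPM in Ad-FAM3A (median 650 CPM). Both genes were high in Ad-sham1, Ad-sham2 and Ad-sham3 and low in Ad-sham5 and Ad-FAM3A3. The log2 fold change was -0.66 for Hadha (SE 0.30, unadjusted p = 0.0473, adjusted p = 0.810, exact permutation p = 0.147) and -0.49 for Hadhb (SE 0.35, unadjusted p = 0.180, adjusted p = 0.819, exact permutation p = 0.379). Without Ad-sham3 the value of Hadha was -0.43, and without Ad-sham1 that of Hadhb was -0.25.

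The subunit genes lie head to head on chromosome 5 with 85 bases between them, and their promoter windows (from 250 bases before to 50 bases after the RefSeq start, GRCm38.p6) share 228 bases. The window of Hadhb is printed because a single stretch of DNA precedes both subunits of the complex. It is given on the plus strand at chr5:30155003-30155302, with the bases between the gene bodies in capitals, Hadha to the left and Hadhb to the right.
Hadha and Hadhb: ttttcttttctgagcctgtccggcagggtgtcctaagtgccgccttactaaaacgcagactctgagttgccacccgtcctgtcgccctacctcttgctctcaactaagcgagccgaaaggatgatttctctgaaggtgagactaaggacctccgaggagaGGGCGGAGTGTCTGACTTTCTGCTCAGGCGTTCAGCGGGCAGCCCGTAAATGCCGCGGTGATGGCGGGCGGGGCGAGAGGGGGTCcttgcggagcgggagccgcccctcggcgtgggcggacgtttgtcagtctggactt
Per length, Hadhb had more than Hadha in all 13 aortas. The log2 ratio of Hadha to Hadhb was -0.90 ± 0.37 in Ad-sham and -1.06 ± 0.33 in Ad-FAM3A, a difference of -0.16 that was within the spread between aortas (exact permutation p = 0.406, adjusted over 4 ratios 0.542). It was -0.08 without Ad-FAM3A7 and -0.27 without Ad-sham1. Ad-sham5 had the ratio nearest to 0, and Ad-FAM3A7 the farthest from it.

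Acaa2 (ENSMUSG00000036880, chr18:74779197-74806207, plus strand) encodes the matrix thiolase that ends the round on shorter chains. Its level ranged from 285 to 929 CPM in Ad-sham (median 544 CPM) and from 209 to 1060 CPM in Ad-FAM3A (median 471 CPM). Unlike the other 9 enzymes, it was highest in an Ad-FAM3A aorta, Ad-FAM3A2, and the groups covered nearly the same range. The log2 fold change of -0.23 was smaller than its error (SE 0.37, unadjusted p = 0.546, adjusted p = 0.902, exact permutation p = 0.543), with means of 598 ± 283 CPM and 509 ± 277 CPM, and it was -0.06 without Ad-sham3 and -0.50 without Ad-FAM3A2.

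Etfdh (ENSMUSG00000027809, chr3:79603788-79629500, minus strand) encodes the oxidoreductase that passes the electrons of the dehydrogenases from the electron transfer flavoprotein to ubiquinone. Its level ranged from 126 to 443 CPM in Ad-sham (median 269 CPM) and from 133 to 258 CPM in Ad-FAM3A (median 179 CPM). The highest values belonged to Ad-sham1, Ad-sham2 and Ad-sham3 and the lowest of all to Ad-sham5. The log2 fold change was -0.61 (SE 0.27, unadjusted p = 0.0375, adjusted p = 0.810, exact permutation p = 0.107), with means of 275 ± 122 CPM and 180 ± 39.8 CPM.

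Levels were compared between genes as counts per kilobase of the deposited gene length on the CPM scale (RPKM), without Cpt1b. That length takes in the annotated exons of all transcripts, from 1515 bases for Acaa2 to 10483 for Acsl1, so the order depends on it. By this measure Acaa2 was the highest at 363 ± 179 RPKM (SD, n = 13), followed by Acadm at 171 ± 82.4, Hadhb at 126 ± 60.8, Acadvl at 110 ± 56.9, Cpt2 at 80.2 ± 36.1, Acsl1 at 76.8 ± 30.9, Hadha at 62.8 ± 31.2, Etfdh at 29.8 ± 12.95 and Slc27a1 at 25.6 ± 12.03 RPKM. In CPM, without a length, Hadhb averaged above Acaa2, at 981 against 598 in Ad-sham and 700 against 509 in Ad-FAM3A. By RPKM, Acaa2 exceeded Acadm and Hadha exceeded Etfdh in each of the 13 aortas. Other neighbours in the order changed places between aortas. Acadm exceeded Hadhb in 12 aortas, Hadhb exceeded Acadvl in 10, Acadvl exceeded Cpt2 in 12 and Acsl1 exceeded Hadha in 11. Cpt2 exceeded Acsl1 in 9 of 13 and Etfdh exceeded Slc27a1 in 8 of 13, and differences in level between genes were not tested. The authors' mean FPKM, a deposited value per group with no spread, gave 393 for Acaa2 in Ad-sham and 336 in Ad-FAM3A, and 33.8 and 18.3 for Slc27a1.

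The spread among aortas of 1 group was wide and shared by most of the enzymes. Ad-sham2 and Ad-sham3 were among the 4 highest aortas for all 10 enzymes, and Ad-sham1 and Ad-FAM3A2 for 8 each. Ad-FAM3A3, which of all aortas had the highest kidney and sympathetic neuron marker scores (mean log2 CPM 3.77 and 6.92), was the lowest for 6 of 10 and Ad-sham5 for 3 of 10 (Acadm, Hadhb and Etfdh). Across the 13 aortas, the log2 CPM of the 7 enzymes that act in the matrix or at the inner membrane (Cpt2, Acadm, Acadvl, Hadha, Hadhb, Acaa2 and Etfdh) rose and fell together. Their 21 pairs had Pearson's r from 0.81 to 0.98 and Spearman's rho from 0.79 to 0.96, and all 21 passed the permutation test after adjustment over 45 pairs (adjusted p from 4.09e-05 to 0.00117). Of all pairs of tested genes, 0.949% had an r at least as high as the lowest of the 21. Acadm and Etfdh formed the closest pair (r = 0.98). Without the 2 aortas farthest from the median of the first gene, r stayed between 0.75 and 0.98. Because the Ad-sham aortas fell into 3 high and 3 low ones for these genes, the 7 Ad-FAM3A aortas are the more even set, and within them r ranged from 0.71 to 0.98.

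The activating enzymes had lower correlations. Acsl1 correlated with each of the other 9 enzymes by Pearson's r (0.61 to 0.86, adjusted permutation p at most 0.0348), Cpt1b among them, but with only 2 of 9, Cpt2 and Etfdh, by Spearman's rho. Slc27a1 passed with 1 of 9, Acsl1 (r = 0.62, adjusted permutation p = 0.0307), and with none by rho. Within groups that pair had r = 0.18 in Ad-sham and 0.32 in the 7 Ad-FAM3A aortas. Its r with Hadhb was -0.03 and with Acaa2 0.02. Ad-sham5 shows the contrast: it held the second highest level of Slc27a1 and the lowest of Acadm, Hadhb and Etfdh. Among the 10377 genes with a mean log2 CPM above 3, those whose level was most like the mean profile of the 10 enzymes were Slc25a20 (r = 0.98), which encodes the carnitine-acylcarnitine translocase, then Atpaf2, an assembly factor of ATP synthase (r = 0.98), Aifm2 (r = 0.98), Sdha, the flavoprotein subunit of succinate dehydrogenase (r = 0.98), and Crat, carnitine acetyltransferase (r = 0.97).

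**Figure D2:**
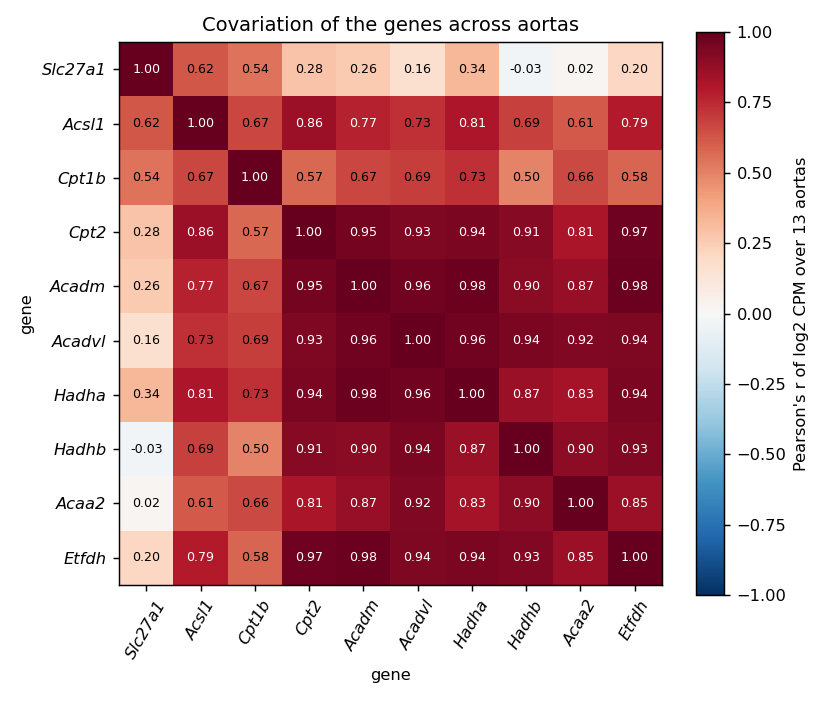
Pearson's r of log2 CPM over the 13 aortas for each pair of the 10 enzymes, coloured from -1 (blue) to 1 (red). The block from Cpt2 to Etfdh holds r of 0.81 or more, whereas the row of Slc27a1 reaches at most 0.62.

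Promoter windows were found in the RefSeq table (GRCm38.p6) for 8 of the 10 genes, 11 windows in all because Acsl1 and Slc27a1 have several starts. Each was searched on both strands for the nuclear receptor half-site AGGTCA, the longer estrogen-related receptor element TCAAGGTCA, the GC box GGGCGG and the TATA box TATAAA. The longer element contains the half-site. The half-site was found in 2 of 11 windows, Acadm and Acadvl, against 16.3% of all 32851 windows in the table. The estrogen-related receptor element was in 0 of 11 (0.423% of all windows), the GC box in 7 of 11 (35.7%) and the TATA box in 0 of 11 (13.6%). The windows of both dehydrogenases are printed because they hold the half-site, which is in capitals. They run in the direction of transcription, for Acadm from chr3:153944594-153944893 and for Acadvl from chr11:70015379-70015678, both on the minus strand. Counted from the start, with the base before it as -1, the half-site begins at position -249 in Acadm, in its reverse form TGACCT, and at position -87 in Acadvl.
Acadm: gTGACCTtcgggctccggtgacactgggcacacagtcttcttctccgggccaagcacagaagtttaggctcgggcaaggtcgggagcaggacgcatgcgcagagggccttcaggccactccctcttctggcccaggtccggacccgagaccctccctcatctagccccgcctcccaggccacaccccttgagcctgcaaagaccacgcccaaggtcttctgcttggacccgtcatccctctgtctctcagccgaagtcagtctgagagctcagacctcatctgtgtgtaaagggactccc
Acadvl: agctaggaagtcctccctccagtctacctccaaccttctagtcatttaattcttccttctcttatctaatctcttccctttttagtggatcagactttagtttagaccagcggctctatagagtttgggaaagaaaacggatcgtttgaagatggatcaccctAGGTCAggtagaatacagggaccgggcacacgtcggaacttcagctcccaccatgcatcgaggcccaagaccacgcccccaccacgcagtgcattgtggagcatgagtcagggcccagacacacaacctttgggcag
A match of these letters says nothing of binding in these aortas, and a window without one says only that the letters are not in it.

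The other genes of the pathway were taken from lists and compared in the same fit. None of them reached an adjusted p under 0.05, and the smallest adjusted p on each list was 0.810 or above. Of the 52 genes on the lists of uptake, carnitine shuttle, beta-oxidation, electron transfer flavoprotein, regulators and ketone bodies with uncoupling, 51 were tested, 47 had a negative log2 fold change and 10 were lower at an unadjusted p under 0.05, against 49.6% and 2.93% of all genes tested, shares that hold as the background for each list that follows as well. None was higher at that p.

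For uptake and activation, 9 of 12 genes tested had a negative log2 fold change (median -0.29), and 3 had an unadjusted p under 0.05. These were the fatty acid translocase Cd36, at 1472 ± 499 and 1046 ± 115 CPM (log2 fold change -0.49), the transporter Slc27a2, at 55.8 ± 32.2 and 29.0 ± 13.4 CPM (-0.95), and the acyl-CoA synthetase Acsl5, at 206 ± 122 and 111 ± 23.0 CPM (-0.89). Each first value is Ad-sham and each second is Ad-FAM3A. All 7 genes of the carnitine shuttle had a negative value (median -0.56), and 4 had an unadjusted p under 0.05. Among them were the carnitine transporter Slc22a5, at 47.2 ± 9.28 and 33.6 ± 5.67 CPM (-0.49), and Acacb, the mitochondrial acetyl-CoA carboxylase that makes the malonyl-CoA inhibiting carnitine palmitoyltransferase 1, at 658 ± 464 and 320 ± 75.3 CPM (-1.04). The others were Crat (-0.61) and Mlycd, the malonyl-CoA decarboxylase that removes this inhibitor (-0.59). Genes that make and that break down malonyl-CoA thus had the same sign. Cpt1a, the liver form of carnitine palmitoyltransferase 1, was at 118 ± 49.1 and 116 ± 31.6 CPM, a log2 fold change of -0.03, and its values overlapped fully.

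In the spiral itself all 15 further genes had a negative log2 fold change (median -0.35), with an unadjusted p under 0.05 for 2, the acyl-CoA dehydrogenase Acad11 (-0.63) and the thioesterase Acot2 (-0.66). Both subunits of the electron transfer flavoprotein, Etfa (-0.45) and Etfb (-0.38), had negative values that missed this p. So did all 8 regulators (median -0.33), the largest being the coactivator gene Ppargc1b at -0.61 and Esrra, an estrogen-related receptor, at -0.59. On the list of ketone bodies and uncoupling, Ucp3, a mitochondrial carrier of muscle and brown fat, was at 32.4 ± 11.5 and 15.6 ± 7.92 CPM (-1.06, unadjusted p = 0.00637 in edgeR), whereas the ketone body enzyme Bdh1, named after its value was seen, was the only one of 7 with a positive value (0.48).

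Negative values also prevailed on lists outside mitochondrial fat oxidation. All 12 genes tested of peroxisomal beta-oxidation had a negative log2 fold change (median -0.48), 7 of them at an unadjusted p under 0.05, among them the bifunctional enzymes Ehhadh and Hsd17b4 at -0.83 and -0.48, the thiolases Acaa1b and Scp2 at -0.65 and -0.54, the transporter Abcd3 at -0.48 and the racemase Amacr at -0.43. All 16 genes of the citric acid cycle had a negative value (median -0.41), none at that p, with Sdha at -0.59. All 14 glycolytic genes did as well (median -0.48), 4 of them at an unadjusted p under 0.05, the phosphofructokinase Pfkl (-0.97), the aldolase Aldoa (-0.78), the enolase Eno1 (-0.76) and the isomerase Gpi1 (-0.38).

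**Figure D3:**
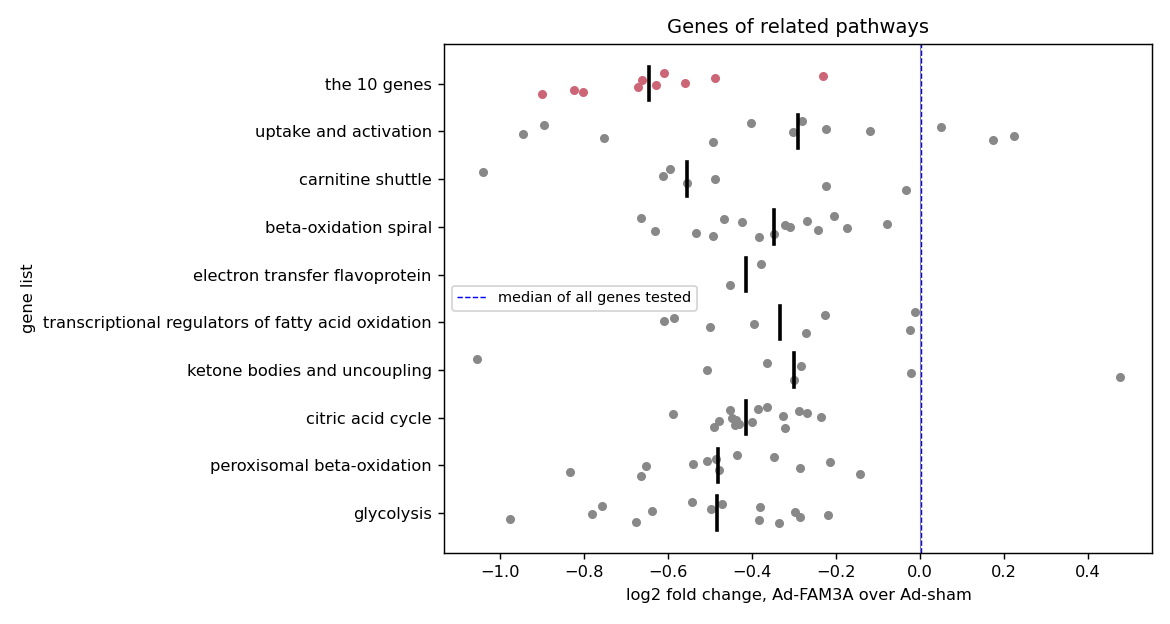
Log2 fold change of Ad-FAM3A over Ad-sham for each tested gene of the related lists, with the 10 enzymes in red, other genes in grey and a black bar at each list's median. The dashed line is the median of all 15811 genes tested, and every list has its median to the left of it, from -0.65 for the 10 enzymes to -0.29 for uptake and activation.

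Markers of brown adipocytes moved with the enzymes. The mean log2 CPM of 8 markers (Ucp1, Cidea, Elovl3, Dio2, Prdm16, Cox7a1, Cox8b and Otop1) was 6.76 ± 0.92 in Ad-sham (n = 6, from 5.42 to 7.83) and 6.15 ± 0.47 in Ad-FAM3A (n = 7, from 5.52 to 6.82), and 7 of 8 markers had a negative log2 fold change. Their summed level ranged from 699.8 to 3975 CPM in Ad-sham and from 727 to 3151 CPM in Ad-FAM3A, and none was at 0 in any group. Ucp1, the uncoupling protein that defines brown adipocytes, had 1097 ± 739 CPM in Ad-sham and 541 ± 266 CPM in Ad-FAM3A (log2 fold change -1.02, unadjusted p = 0.0394, adjusted p = 0.810). The other markers ranged widely, with Elovl3 at -1.85, Otop1 at -1.08, Cox7a1 at -0.59 and Cidea at -0.52. Cox8b (-0.20), Dio2 (-0.07) and Prdm16 (0.04) differed little between groups. All 8 general adipocyte markers had a negative value too, with a mean log2 CPM of 8.49 ± 0.73 and 7.96 ± 0.64 and a summed level from 3674 to 10660 CPM and from 2431 to 6277 CPM. In contrast, 0 of 9 smooth muscle markers had a negative value, with a mean log2 CPM of 8.02 ± 0.68 and 8.35 ± 0.96.

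Over the 13 aortas, 9 of the 10 enzymes correlated with the brown adipocyte score after adjustment over 40 relations (8 by Spearman's rho), or 8 of 9 without Cpt1b (7 by rho), with r up to 0.93 for Acadm and 0.92 for Hadha (rho 0.84 and 0.88, adjusted permutation p = 0.0008 for both r). Among the 15803 tested genes outside the marker list, 1055 (6.68%) had an r of at least 0.69, the lowest of those 9 enzymes. Left without Ad-sham2 and Ad-sham3, the aortas farthest from the median score, Acadm had r = 0.88 and Hadha r = 0.86. Within groups, Acadm had r = 0.96 in Ad-sham and 0.74 in Ad-FAM3A (n = 7), whereas Hadhb had 0.91 and 0.28. The exception was Slc27a1, with r = 0.36 and rho = 0.32 (permutation p = 0.228 and 0.289, adjusted p = 0.294 and 0.331), which was -0.06 without those 2 aortas. That relation rested on single aortas, since without Ad-sham5 alone r was 0.66 (permutation p = 0.0193, not adjusted). Acsl1 had r = 0.76 and rho = 0.62 (permutation p = 0.003 and 0.0273, adjusted 0.01 and 0.0529). With the general adipocyte score 9 of 10 enzymes passed (8 by rho), with r from 0.63 (Cpt1b) to 0.85. Of the genes compared, 9.33% had an r at or above the lowest that passed. Slc27a1 did not pass (r = 0.37), and by rho Acsl1 did not either. With the smooth muscle score 0 of 10 passed (r from -0.47 to 0.13) and with the cardiac muscle score 1 of 10, Hadhb (r = 0.62, adjusted permutation p = 0.0475). By rho the cardiac score passed with Acadvl and Acaa2 (adjusted permutation p = 0.0314 and 0.0480) and not with Hadhb (0.0529).

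**Figure D4:**
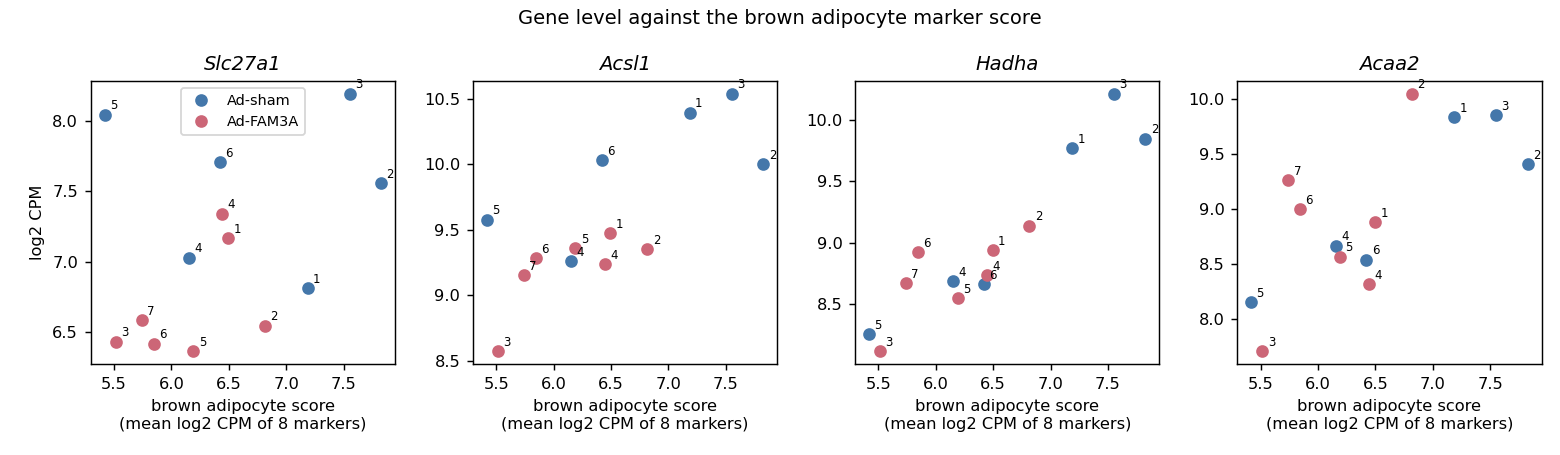
Log2 CPM of Slc27a1, Acsl1, Hadha and Acaa2 against the brown adipocyte score (mean log2 CPM of 8 markers) in each aorta, blue for Ad-sham and red for Ad-FAM3A, numbered as labelled. Hadha follows the score (r = 0.92), whereas Slc27a1 has r = 0.36, with Ad-sham5 high in Slc27a1 at the lowest score (r = 0.66 without it).

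With the brown adipocyte score as a covariate in the edgeR fit, the median log2 fold change of the 10 enzymes was -0.09 instead of -0.65, and 7 of 10 stayed negative. Slc27a1 stayed at -0.86 (unadjusted p = 0.00605) and Acsl1 at -0.54 (unadjusted p = 0.0144), the only enzymes with an unadjusted p under 0.05 in that fit, in which 2.41% of all genes were lower at that p. Cpt2 was then at -0.20, Etfdh at -0.12, Hadha at -0.05 and Acadm at -0.01, and Acadvl, Hadhb and Acaa2 had positive values of 0.12, 0.12 and 0.29. With the general adipocyte score the median was -0.16, with Slc27a1 at -0.84 and Acsl1 at -0.62, again the only ones at an unadjusted p under 0.05 (1.62% of all genes lower at that p). With the smooth muscle score the median was -0.56, all 10 were negative and 2 had an unadjusted p under 0.05 (3.96% of all genes lower at that p). The part of fat tissue in the differences between groups was not tested.

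**Figure D5:**
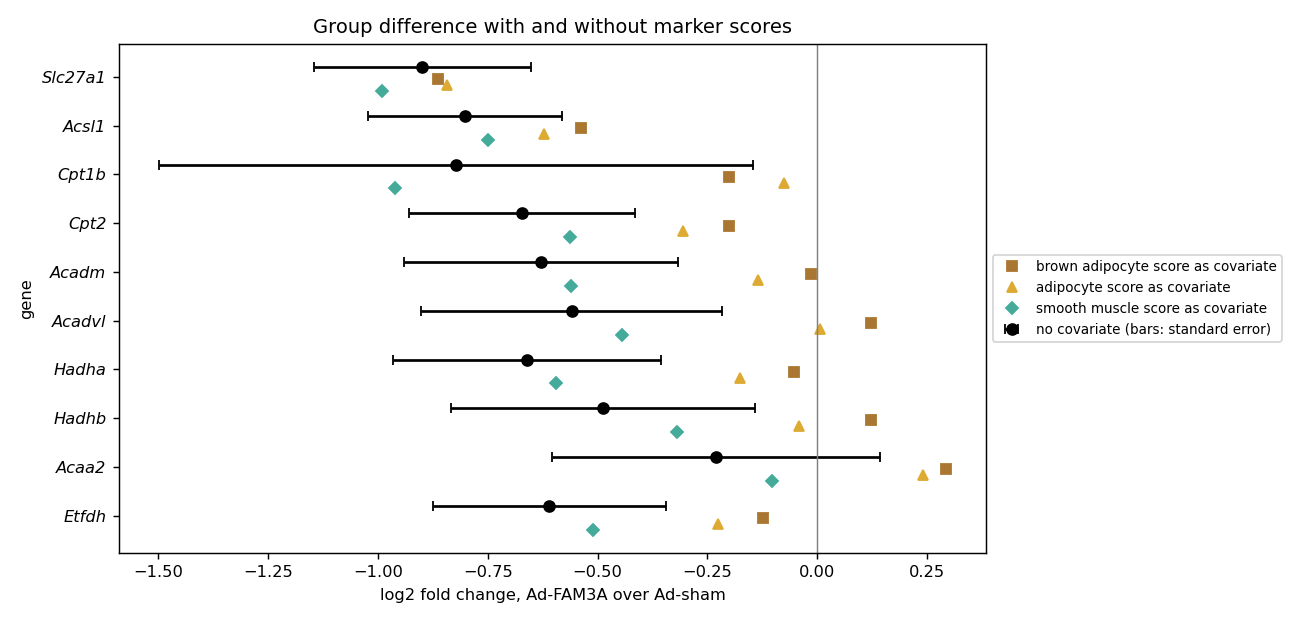
Log2 fold change of Ad-FAM3A over Ad-sham for the 10 enzymes without a covariate (black, bars are standard errors) and with the brown adipocyte, adipocyte or smooth muscle score in the fit. Slc27a1 and Acsl1 remain at -0.54 or below under each of them, whereas the median of the 10 moves to -0.09 with the brown adipocyte score.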

How the data were processed

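RNA was sequenced from 13 samples, each labelled as mouse aorta. Per the study's methods, the authors aligned reads of 150 bases to GRCm38/mm10 with Hisat2 and counted them per gene with FeatureCounts. The deposited table holds those counts for each aorta. A separate table holds FPKM, which the authors computed and deposited as 1 mean per group, so no test used them. The gene length deposited by the authors was used for RPKM. Strand and overlap settings of the counting are not given in the sources used here, and the labels and the study's methods name different library kits.

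From the counts, genes were filtered with filterByExpr, scaled by TMM and tested with edgeR 4.0.16 (glmQLFit and glmQLFTest, group as only term, Benjamini-Hochberg adjustment over the 15811 genes tested) in R 4.3.3. limma-voom (limma 3.58.1) and DESeq2 1.42.0 were alternatives, with other scalings and filters, marker scores as covariates, the replicate number as a block and each aorta left out in turn. CPM are TMM-scaled, log2 CPM used a prior count of 2, and ratios had 0.5 counts added. Exact two-sided permutation tests ran over aortas, and correlations used 100000 permutations. The table has 6 and 7 aortas, and intervals from counts cover counting error only. Replicate numbers are shared between groups, but nothing states that equal numbers mark a shared animal, litter or day. The 10 enzymes, the pathway lists and the marker lists were chosen with earlier results of these data known. The genes named are the 10 enzymes, Fam3a, the genes of each pathway list at an unadjusted p under 0.05 or otherwise the 2 with the largest log2 fold change, markers, and the 5 genes most like the mean of the enzymes' standardized log2 CPM. Cpt1a enters through its ratio to Cpt1b, and overlapping genes are named beside the enzyme they touch. Some genes that this rule names are not reported here.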

Additional observations from a re-analysis of the deposited data

Results flagged for a closer look

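A single aorta, Ad-FAM3A3, lay far from the other 6 of its group in 4 of the 28 groups of values examined. Its log2 CPM of Acsl1 was 8.57, where the others lay between 9.15 and 9.47. Its log2 CPM of Cpt1b was -3.02, where the others lay between -0.63 and 0.73, because it had no Cpt1b count. The same 0 set its log2 ratio of Cpt1b to Cpt1a (-11.77, others -7.39 to -5.50) and of Cpt2 to Cpt1b (12.09, others 6.98 to 8.70). The value of the gap used here is set so that chance alone exceeds it in about 1 in 20 groups, and 3 of the 4 rest on the same Cpt1b count, so they are not independent.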

How the results depend on the processing

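None of the 10 enzymes was called at an adjusted p under 0.05 in any of the 25 alternatives. Against 5 of 10 lower at an unadjusted p under 0.05, the number was 4 with DESeq2's size factors in edgeR, library totals or no filter, 3 with limma-voom, 2 with the replicate block, 2 each with the brown adipocyte, adipocyte or smooth muscle score as covariate, and 2 without Ad-sham1 and Ad-FAM3A6 (chosen after seeing the data). Under the 3 settings that gave 4, Hadha had an unadjusted edgeR p of 0.0532 (size factors), 0.0581 (totals) and 0.0507 (no filter). Of all genes, 2.61% (size factors), 2.17% (totals) and 2.63% (no filter) were lower at an unadjusted p under 0.05. That share was 2.5% with limma-voom, 2.49% with the replicate block and 2.19% without Ad-sham1 and Ad-FAM3A6. With the brown adipocyte, adipocyte and smooth muscle scores it was 2.41%, 1.62% and 3.96%. Leaving out 1 aorta at a time gave 2 of 10 enzymes (without Ad-sham1 or Ad-sham3) to 7 of 10 (without Ad-sham5), and a median log2 fold change from -0.80 to -0.45. Over all genes, 934 had an unadjusted p under 0.05, against 2269 without the filter, 1501 with DESeq2, 620 with the replicate block, 528 with the adipocyte score and 491 without Ad-sham3. The replicate numbers did not pair the aortas: correlations of same-numbered deviations ranged from -0.327 to 0.448, and 1 of 6 numbers matched its own best. The brown adipocyte score moved the median to -0.088 and turned Acadvl (0.12), Hadhb (0.12) and Acaa2 (0.29) positive. The adipocyte score did so for Acadvl (0.00730) and Acaa2 (0.24). The cause was not tested. The log2 ratio of Cpt2 to Cpt1b differed by 0.39 between groups and by -0.18 without Ad-FAM3A3 (range -0.18 to 0.67). The relation of Slc27a1 with the brown adipocyte score was 0.66 without Ad-sham5 (permutation p = 0.0193). All other log2 fold changes kept their sign and stayed above an adjusted p of 0.05. The other ratios, and at an unadjusted p the other relations with the brown adipocyte score, kept their direction and side of the threshold. Relations with other scores and between enzymes were not recomputed with single aortas left out. Cpt1b was not tested with at least 10 counts in every aorta. Counting error bears most on Cpt1b, with 0 to 58 counts.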
